A study of Homo sapiens with 8 samples.

Results

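The response to GSI was described as 1 effect pooled over cells with and without dTAG-13. Jurkat, a human line of T-cell acute lymphoblastic leukaemia (T-ALL), is in long use, and all 8 libraries came from Jurkat cells whose TAL1, a transcription factor active in many T-ALL cases, was fused to FKBP12, the tag recognised by the degrader dTAG-13. The cells had been grown in RPMI-1640 medium with tetracycline-free serum and were harvested 24 hours after treatment. They had received GSI (commonly short for gamma-secretase inhibitor), the combination of GSI and dTAG-13, DMSO (the solvent), or dTAG-13, with 2 libraries each. The 4 libraries with GSI (GSI 1 and 2, combination 1 and 2) were set against the 4 without it (DMSO 1 and 2, dTAG-13 1 and 2), 8 of the 8 libraries of the series. All 15646 of 63677 listed genes with enough counts were tested in a model with GSI and dTAG-13 as 2 additive factors. The labels name neither the compound nor its dose, nor do they say if the cells were 1 clone. They are also silent on whether replicates were separate cultures. The p-values therefore reflect no more than the spread among these libraries, which may be technical.

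NOTCH receptors are cut at the cell surface by ADAM proteases and then inside the membrane by gamma-secretase, a complex of several subunits. The freed intracellular part enters the nucleus, joins the DNA-binding protein RBPJ and a Mastermind coactivator, and switches on target genes. In T-ALL, NOTCH1 is often mutated so that it signals without ligand, and MYC is a known direct target there. Neither cleaved NOTCH1 nor TAL1 protein was measured in these data, and the TAL1 transcript is described with its circuit.

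Total counts were 20670781 to 21048411 in libraries with GSI and 17544319 to 22180009 in libraries without it, with DMSO 1 the shallowest. The first principal component of log2 CPM (counts scaled to library size with TMM factors) held 29.3% of the variance and placed every library with GSI on one side and every library without it on the other. The second, with 16.5%, set number 1 apart from number 2 of GSI and of the combination. Summed markers of the T lineage stood at 3831 to 4407 CPM with GSI and at 4008 to 4311 CPM without it. The beta constant gene TRBC1 had no counts in any library, while TRBC2, the other beta constant gene, had 606 to 758 CPM. Why TRBC1 had none was not tested. Of 12 myeloid markers 3 (MPO, FCGR3A and S100A8) had no counts, and the sum of the list was 1.05 to 2.11 CPM with GSI and 0.746 to 2.08 CPM without it. The 10 B-lineage markers summed to 326 to 479.6 CPM with GSI and to 228 to 278 CPM without it, through IGLL1 (log2 fold change 0.57, SE 0.12, adjusted p = 0.00852) and CD79A (0.53, SE 0.073, adjusted p = 0.000286), chains of B-lineage antigen receptors. These are bulk RNA libraries, so fewer cells with a transcript and less of it per cell cannot be told apart.

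Pooled over dTAG-13, GSI lowered 744 genes and raised 732, which is 4.76% and 4.68% of those tested and 9.43% together (edgeR's quasi-likelihood test, Benjamini-Hochberg adjusted p below 0.05). Most changes were small on the log2 scale, on which every pooled value, rise and fall without a unit is given below. The median log2 fold change was 0.35 among genes called higher and -0.33 among genes called lower, and 51 genes rose and 54 fell by at least 2-fold. Without GSI 1, DMSO 1, DMSO 2 or dTAG-13 2 the genes called lower numbered 487, 390, 358 and 356, and those called higher 473, 390, 366 and 368. Genes at a mean of 5 CPM or more whose groups did not overlap were ranked, with clone names and pseudogenes left out. Among them TNFRSF4, DTX1, HES4 and HES1 were lowest, and PTGDR2, TRAC, TRAV8-4 and PLCH1 highest. In 15.2% of all genes tested the 4 libraries with GSI lay all above or all below the other 4, and 1270 of the 1476 called genes were among these. By annotated type, 655 protein-coding genes were called higher and 685 lower of 12134 tested, and 52 long noncoding genes higher and 38 lower of 1988.

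The HES and HEY repressors, the Deltex ubiquitin ligases and NRARP were listed by family, and only some are known to answer NOTCH directly. Of 11 tested genes of this list 4 fell, 1 rose and 6 did not pass. DTX1, a Deltex ligase that binds NOTCH, had 18.3 and 18.9 CPM with GSI, 19.7 and 17.0 CPM with the combination, 138 and 154 CPM with DMSO and 99.5 and 105 CPM with dTAG-13. All 4 libraries with GSI lay far below all 4 without it. Its pooled value was -2.73 (SE 0.10, adjusted p = 2.08e-09), on means of 18.5 ± 1.16 CPM with GSI and 124 ± 26.4 CPM without it (SD, n = 4 each). Each SD, here and below, spans 2 treatments and so includes any difference between them. HES4, a transcriptional repressor, had 9.34 and 14.8 CPM with GSI, 15.4 and 12.8 CPM with the combination, 76.3 and 62.7 CPM with DMSO and 78.5 and 92.2 CPM with dTAG-13. The groups were far apart, at -2.56 (SE 0.12, adjusted p = 3.78e-08). HES1, the repressor best known as a NOTCH target, had 2.39 and 3.28 CPM with GSI, 1.44 and 2.16 CPM with the combination, 12.7 and 12.7 CPM with DMSO and 9.40 and 9.51 CPM with dTAG-13. It was low in every library with GSI and lowest in the combination, and fell by 2.26 (SE 0.13, adjusted p = 4.74e-08). HEY2, a related repressor, fell less, with 3.90 and 3.71 CPM with GSI, 3.07 and 2.97 CPM with the combination, 6.53 and 5.27 CPM with DMSO and 5.34 and 5.64 CPM with dTAG-13. Its groups did not overlap, and its pooled value was -0.74 (SE 0.13, adjusted p = 0.00177).

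The promoters of these 3 repressors are shown because each holds the core of the site bound by RBPJ, TGGGAA, within 250 bases before the annotated start. The sequences are RefSeq's for GRCh38.p14, another build than that of the counts, printed 5′ to 3′ on the gene's strand, with the core in capitals (TTCCCA where it lies on the other strand). HES1 stands at chr3:194135898-194136147 (plus strand), HES4 at chr1:1000098-1000347 (minus strand) and HEY2 at chr6:125749382-125749631 (plus strand). HES1 holds 2 cores, at 84 and 70 bases before the start.
HES1: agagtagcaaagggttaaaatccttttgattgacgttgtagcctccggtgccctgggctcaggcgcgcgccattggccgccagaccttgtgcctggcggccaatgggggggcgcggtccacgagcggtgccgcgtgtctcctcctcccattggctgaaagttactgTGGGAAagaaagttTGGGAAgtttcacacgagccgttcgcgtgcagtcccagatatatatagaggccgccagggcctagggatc
HES4: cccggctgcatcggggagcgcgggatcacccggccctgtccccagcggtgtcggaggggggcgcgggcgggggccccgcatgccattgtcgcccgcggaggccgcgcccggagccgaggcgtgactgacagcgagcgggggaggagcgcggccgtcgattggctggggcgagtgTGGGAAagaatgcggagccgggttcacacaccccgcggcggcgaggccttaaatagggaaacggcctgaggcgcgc
HEY2: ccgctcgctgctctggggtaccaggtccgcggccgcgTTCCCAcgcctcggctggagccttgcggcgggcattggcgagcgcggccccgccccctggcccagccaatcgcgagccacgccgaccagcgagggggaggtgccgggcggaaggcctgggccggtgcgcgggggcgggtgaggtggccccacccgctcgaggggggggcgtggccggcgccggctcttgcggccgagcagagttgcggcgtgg
Of the 10 tested genes of this list with a RefSeq promoter, 5 held TGGGAA on either strand and 4 held the longer GTGGGAA, which contains it. HES1, HES4 and HEY2 held both, and so did HEYL, whose level did not pass the test (log2 fold change -0.01, SE 0.16), while DTX2 held the shorter one (0.03, SE 0.064). Over all 9876 protein-coding genes with a promoter (81.4% of those tested), 19.1% held TGGGAA and 4.94% held GTGGGAA. Among genes called lower, of which 81.3% had a promoter, the shares were 19.0% and 6.28%. A separate list of 15 tested genes, other reported NOTCH1 targets in T-ALL, had 14 promoters. Of these 14, 2 held TGGGAA (14.3%) and 0 held GTGGGAA. A match is a string of letters and not a measured binding site.

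The median of the list of HES, HEY, Deltex and NRARP genes was -0.06, beside 0.007 over all genes tested. The gene that rose was HES6, a HES protein that counteracts HES1 in mouse, at 0.29 (SE 0.080, adjusted p = 0.0368). It lost its call without library GSI 2, combination 1, DMSO 1, DMSO 2, dTAG-13 1 or dTAG-13 2 or in the model of the 4 groups (adjusted p up to 0.131). NRARP, an inhibitor of the NOTCH complex, was near the limit of detection at 0.434 to 0.623 CPM with GSI and 0.499 to 1.16 CPM without it (-0.54, SE 0.32, not called). DTX3L and DTX4 stood at -0.06 and 0.05, and HES7 at -0.03, none of them called. DTX3, HES2, HES5 and HEY1 had too few counts to test.

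Of 15 further genes reported as NOTCH1 targets in T-ALL 10 fell, 1 rose and 4 were not called, with a median of -0.67. The lowest by far was CR2, the complement receptor CD21, a rare transcript here. Its counts were 4 and 3 with GSI, 3 and 3 with the combination, 61 and 69 with DMSO and 50 and 56 with dTAG-13. Scaled to depth, the summed counts with GSI were 0.0539 of those without it (95% interval 0.0283 to 0.0939, exact, for counting error alone). PTCRA, the invariant chain that pairs with the receptor beta chain in immature thymocytes, had 1.27 and 1.45 CPM with GSI, 2.84 and 1.82 CPM with the combination, 3.93 and 4.27 CPM with DMSO and 8.52 and 10.2 CPM with dTAG-13. It was lower with GSI on both backgrounds, at -1.84 (SE 0.16, adjusted p = 4.8e-06). RHOU, an atypical small GTPase, had 45.3 and 42.1 CPM with GSI, 51.0 and 45.8 CPM with the combination, 107 and 116 CPM with DMSO and 106 and 116 CPM with dTAG-13. The groups were well apart, with a pooled value of -1.28 (SE 0.065, adjusted p = 1.23e-08).

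MYC, the growth-regulating transcription factor, had 170.1 and 189.7 CPM with GSI, 200.2 and 225 CPM with the combination, 349 and 340.1 CPM with DMSO and 348 and 352 CPM with dTAG-13. Without GSI its 4 libraries agreed closely, and with GSI all 4 lay well below them, at means of 196 ± 22.9 CPM with GSI and 347 ± 5.14 CPM without it (SD, n = 4 each) and a pooled value of -0.83 (SE 0.065, adjusted p = 1.34e-06). IGF1R, the receptor for insulin-like growth factors, had 61.7 and 52.9 CPM with GSI, 66.7 and 58.7 CPM with the combination, 122 and 133 CPM with DMSO and 128 and 117 CPM with dTAG-13. It fell by about the same ratio in both backgrounds (-1.06, SE 0.072, adjusted p = 2.57e-07). IL7R, the receptor for interleukin 7, had 44.3 and 37.4 CPM with GSI, 41.9 and 38.3 CPM with the combination, 55.2 and 57.5 CPM with DMSO and 57.2 and 53.1 CPM with dTAG-13. Its fall was small but without overlap (-0.46, SE 0.067, adjusted p = 0.000461). FJX1, a Golgi kinase (-1.22, SE 0.15, adjusted p = 0.000117), SHQ1, an assembly factor of small nucleolar ribonucleoproteins (-0.70, SE 0.053, adjusted p = 1.08e-06), TASP1, the protease that cuts MLL (-0.67, SE 0.093, adjusted p = 0.00034), and LZTFL1, a regulator of ciliary trafficking (-0.53, SE 0.056, adjusted p = 2.57e-05), also fell. CCND3, the D cyclin of T cells, rose (0.24, SE 0.057, adjusted p = 0.0141), and lost that call without library DMSO 2, dTAG-13 1 or dTAG-13 2 (adjusted p up to 0.0719). TRIB2, SKP2, CISH and CDK6 did not pass, at log2 fold changes of -0.07, -0.14, -0.10 and 0.12.

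**Figure D1:**
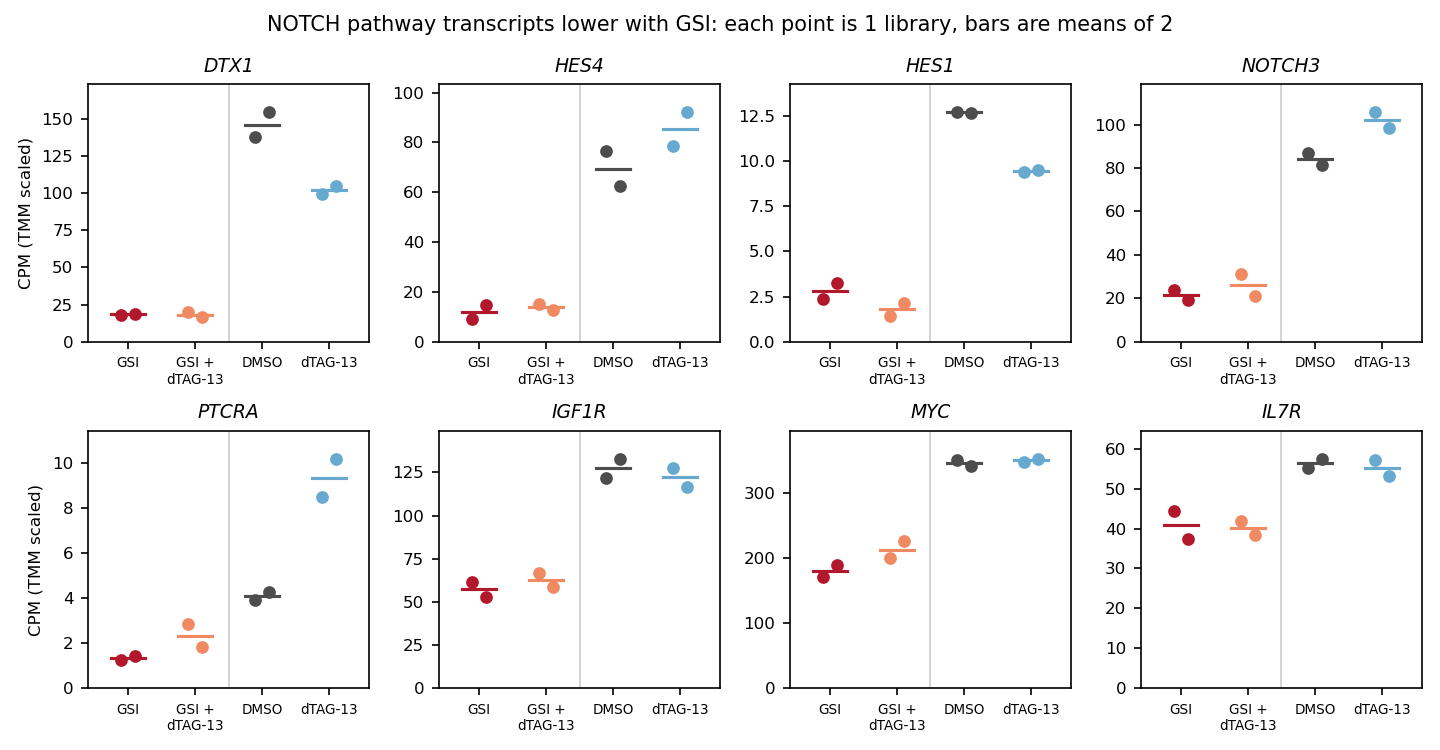
CPM of 8 NOTCH pathway transcripts in each library (vertical axis, linear and starting at 0), with GSI and the combination of GSI and dTAG-13 left of the grey line and DMSO and dTAG-13 right of it; points are libraries and bars are means of 2. In every panel the 4 libraries with GSI lie below the 4 without it, from DTX1 (log2 fold change -2.73) to IL7R (-0.46).

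Receptors, ligands and Fringe enzymes of the pathway moved in different directions, with 1 of 12 higher, 3 lower and a median of -0.19. NOTCH3, a receptor that NOTCH1 itself induces in T-ALL, had 23.7 and 19.2 CPM with GSI, 31.1 and 21.0 CPM with the combination, 87.0 and 81.4 CPM with DMSO and 106 and 98.3 CPM with dTAG-13. It fell about as far as HES1 (-1.97, SE 0.10, adjusted p = 9.26e-08). NOTCH1 had 135 and 131 CPM with GSI, 134 and 124 CPM with the combination, 114 and 117 CPM with DMSO and 107 and 99.5 CPM with dTAG-13. All 4 libraries with GSI lay above the other 4, by 0.26 (SE 0.055, adjusted p = 0.00878), and the call was lost without library dTAG-13 2 (adjusted p = 0.0566). JAG1, a ligand, fell (-0.85, SE 0.20, adjusted p = 0.0135) at no more than 4.59 CPM in any library, a call lost without library DMSO 2 or dTAG-13 2 (adjusted p up to 0.0795). MFNG, a Fringe enzyme that adds sugars to NOTCH, fell (-0.35, SE 0.065, adjusted p = 0.00321). The other 8 tested members did not pass, among them NOTCH2 (-0.20, SE 0.10), JAG2 (0.38, SE 0.14) and DLL3 (-0.25, SE 0.14), and DLL1 and DLL4 had too few counts.

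Of 7 tested genes of gamma-secretase and the ADAM proteases 2 rose, 0 fell and 5 did not pass (median 0.16). ADAM10, which makes the first cut, had 210.1 and 182 CPM with GSI, 192 and 186 CPM with the combination, 146 and 155 CPM with DMSO and 144 and 137 CPM with dTAG-13. It rose without overlap, by 0.40 (SE 0.058, adjusted p = 0.000447). APH1B, a gamma-secretase subunit, rose by 0.22 (SE 0.067, adjusted p = 0.048), a call lost in 11 of 14 alternatives, namely without library GSI 1, combination 1, combination 2, DMSO 1, DMSO 2, dTAG-13 1 or dTAG-13 2, with DESeq2's size factors, without the filter on low counts, with DESeq2 or in the model of the 4 groups (adjusted p up to 0.166). NCSTN, the subunit nicastrin, had a positive value short of the threshold (0.17, SE 0.054, adjusted p = 0.0576), as did APH1A, PSENEN and ADAM17. PSEN2 had too few counts to test. Of 11 tested genes of the nuclear complex and of NOTCH turnover 0 were called by edgeR or DESeq2 and 0 had an unadjusted p below 0.05, with values between -0.07 (SPEN) and 0.10 (ITCH). RBPJ itself had 108 and 72.6 CPM with GSI, 109 and 74.8 CPM with the combination, 88.1 and 92.1 CPM with DMSO and 100.2 and 84.4 CPM with dTAG-13, higher in the libraries numbered 1 than in those numbered 2 of both GSI groups. Of 4 tested genes reported as repressed by HES1, CYLD, NR3C1 and BBC3 had positive values of 0.07 to 0.31, and of the 4 genes 0 were called by edgeR or DESeq2 and 0 stood at an unadjusted p below 0.05.

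Several of the lowest genes lie outside these lists. TNFRSF4, the costimulatory receptor OX40, had 1.36 and 0.965 CPM with GSI, 1.63 and 1.77 CPM with the combination, 16.6 and 15.6 CPM with DMSO and 16.9 and 22.0 CPM with dTAG-13. Every library with GSI was far below every library without it, at -3.63 (SE 0.14, adjusted p = 1.28e-09). MYO7B, an unconventional myosin of microvilli, was the most abundant of the 12 lowest named genes, with 497 and 509 CPM with GSI, 629 and 512 CPM with the combination, 1631 and 1634 CPM with DMSO and 1641 and 1665 CPM with dTAG-13. It fell by 1.62 (SE 0.072, adjusted p = 4.01e-09). An antisense gene that overlaps it, RP11-286H15.1, fell alongside (-1.60, SE 0.12, adjusted p = 6.03e-07), and since the strand setting of the counting is not given, their reads cannot be told apart. SH3TC1, which encodes an SH3 domain protein, had 25.3 and 25.9 CPM with GSI, 46.2 and 43.5 CPM with the combination, 126 and 122 CPM with DMSO and 148 and 167 CPM with dTAG-13. With GSI it was lower in the cells without dTAG-13 than in those with it, and its pooled log2 fold change was -2.03 (SE 0.087, adjusted p = 5.79e-09). ADCYAP1, the neuropeptide PACAP (-1.47, SE 0.13, adjusted p = 4.8e-06), GPR157, an orphan receptor (-1.39, SE 0.11, adjusted p = 2.27e-06), and ACY3, an aminoacylase (-1.06, SE 0.11, adjusted p = 1.81e-05), fell as well. With ID1, they completed the 12 lowest by the rule for named genes, which leaves out clone names and pseudogenes.

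ID1 and ID3 bind E proteins and keep them from DNA. ID1 had 3.38 and 3.91 CPM with GSI, 2.93 and 4.22 CPM with the combination, 13.2 and 14.9 CPM with DMSO and 15.8 and 18.6 CPM with dTAG-13. It fell by 2.11 (SE 0.13, adjusted p = 5.29e-08), and ID3, far more abundant at 65.6 ± 12.3 CPM with GSI and 97.7 ± 15.2 CPM without it (SD, n = 4 each), stood at -0.58 (SE 0.080, adjusted p = 0.000394). GIMAP genes encode GTPases that support lymphocyte survival and lie in 1 cluster, so reads of near copies may be shared. Of the 7, 6 fell, with a median of -0.73. GIMAP5 had 44.3 and 48.7 CPM with GSI, 34.3 and 37.0 CPM with the combination, 97.7 and 94.3 CPM with DMSO and 71.3 and 79.2 CPM with dTAG-13. GIMAP1 overlaps it, so reads of both may be mixed. Its groups did not overlap (-1.06, SE 0.061, adjusted p = 3.97e-08), nor did those of GIMAP4 (-0.79, SE 0.059, adjusted p = 7.5e-07) and GIMAP7 (-0.73, SE 0.068, adjusted p = 7.78e-06). GIMAP8, at 0.805 ± 0.134 CPM with GSI and 1.51 ± 0.526 CPM without it, stood at -0.91 with an adjusted p of 0.0517.

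Genes of ribosome assembly fell together by small amounts. Of 36 tested, 27 fell and 9 did not pass, with a median of -0.34, and 16 fell without DMSO 2. NOP16, a nucleolar protein and known MYC target, had 27.9 and 35.1 CPM with GSI, 23.4 and 36.5 CPM with the combination, 42.2 and 44.7 CPM with DMSO and 44.9 and 51.7 CPM with dTAG-13. The libraries with GSI were lower, and number 1 was lower than number 2 in both GSI groups (-0.58, SE 0.12, adjusted p = 0.00998). POLR1B, a core subunit of RNA polymerase I, had 54.7 and 53.9 CPM with GSI, 49.6 and 54.9 CPM with the combination, 71.6 and 80.9 CPM with DMSO and 70.6 and 74.2 CPM with dTAG-13. Here the numbers hardly differed (-0.48, SE 0.061, adjusted p = 0.000151). MYBBP1A, a nucleolar regulator of ribosomal RNA synthesis (-0.52, SE 0.067, adjusted p = 0.000162), and NOLC1, a nucleolar chaperone (-0.44, SE 0.080, adjusted p = 0.0031), fell as well.

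Cytosolic ribosomal protein genes had negative values in 75 of 75 tested, with a median of -0.19, with 0 called by edgeR, 2 by DESeq2 and 24 at an unadjusted p below 0.05. The number called lower was 37 without GSI 2, 1 without combination 2 and 33 without the filter on low counts. The median was -0.365 between libraries numbered 1 and -0.030 between libraries numbered 2. The median of ribosome assembly genes was -0.41 between libraries numbered 1 and -0.24 between those numbered 2. Of 30 translation factors (10% called, beside 9.43% of all genes tested) 3 fell and 27 did not pass (median -0.15). That count was 8 without GSI 2, 6 without combination 2, and 1 without dTAG-13 1 or dTAG-13 2, and it was 10 without the filter on low counts and 8 with DESeq2.

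Enzymes of nucleotide and polyamine synthesis, which feed growing cells, fell in part. In nucleotide synthesis 14 of 27 fell and 13 did not pass (median -0.20), with 6 falling without DMSO 1 or dTAG-13 2 and 7 without DMSO 2. IMPDH2, which makes guanine nucleotides, had 327 and 373 CPM with GSI, 354 and 371 CPM with the combination, 446 and 432 CPM with DMSO and 463 and 478 CPM with dTAG-13. All libraries with GSI were below all without it (-0.35, SE 0.058, adjusted p = 0.0014), and ATIC (-0.32, SE 0.063, adjusted p = 0.00475) and PFAS (-0.32, SE 0.060, adjusted p = 0.00345), both of purine synthesis, fell by similar amounts. Of 11 polyamine genes 4 fell and 7 did not pass, with 2 falling without GSI 1, DMSO 1, DMSO 2 or dTAG-13 2. SRM, spermidine synthase, had 191 and 256 CPM with GSI, 195 and 263 CPM with the combination, 331 and 306 CPM with DMSO and 319 and 347 CPM with dTAG-13. Number 1 was lower than number 2 in both GSI groups (-0.53, SE 0.10, adjusted p = 0.00539), and AMD1, which supplies the aminopropyl donor, fell by 0.30 (SE 0.055, adjusted p = 0.00285). Among 15 heat shock genes 5 fell, 10 did not pass and the median was -0.19, led by HSPD1, the mitochondrial chaperone (-0.35, SE 0.066, adjusted p = 0.00344). That count was 2 without GSI 1, DMSO 1, DMSO 2 or dTAG-13 2, and 3 without dTAG-13 1 or in the model of the 4 groups. In glycolysis 1 gene rose and 1 fell of 23 (median -0.03), 8.7% called beside 9.43% of all genes tested. The number falling was 0 without GSI 1, DMSO 1, DMSO 2 or dTAG-13 2 and 3 without the filter on low counts. In amino acid transport and stress response edgeR and DESeq2 called 0 of 21, with 5 at an unadjusted p below 0.05 (median -0.10).

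Within the MYC network, 2 repressors of 1 family moved apart. MXD3, a repressor that competes with MYC for MAX, had 43.6 and 52.0 CPM with GSI, 53.5 and 44.3 CPM with the combination, 29.3 and 27.1 CPM with DMSO and 33.3 and 30.6 CPM with dTAG-13. It rose by 0.69 (SE 0.081, adjusted p = 7.7e-05), while MXI1, of the same family, fell by 0.36 (SE 0.082, adjusted p = 0.0117) and lost its call without library dTAG-13 1 (adjusted p = 0.0518). MAX, the shared partner, stood at -0.14 and did not pass, and 9 of 12 members were not called. The number that rose was 1, or 2 without GSI 2 or with total counts alone.

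**Figure D2:**
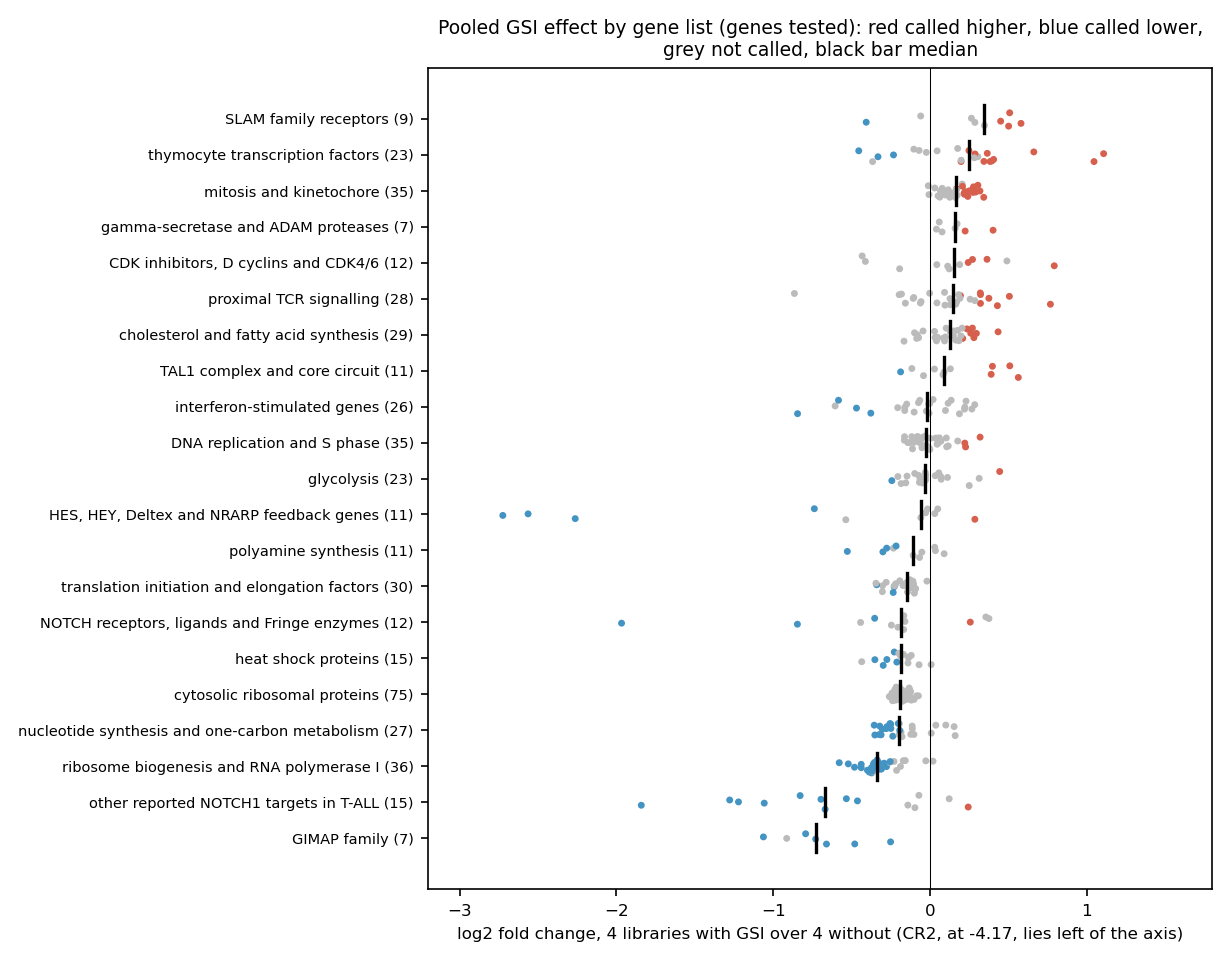
Log2 fold change of each tested gene (points) in 21 gene lists, 4 libraries with GSI over 4 without; red points were called higher, blue points called lower, grey points not called, and black bars are list medians, which order the lists (CR2 lies left of the axis). GIMAP genes, NOTCH1 targets and ribosome assembly genes have the lowest medians (-0.73, -0.67 and -0.34) and SLAM receptors and thymocyte transcription factors the highest (0.35 and 0.25).

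Among the named genes that rose, TRAC and TRAV8-4 of the T cell receptor alpha locus had some of the highest ratios. TRAC, the alpha constant gene, had 202 and 224 CPM with GSI, 148 and 184 CPM with the combination, 82.8 and 78.1 CPM with DMSO and 63.0 and 62.3 CPM with dTAG-13. Every library with GSI held more than every library without it, at means of 189 ± 31.8 CPM with GSI and 71.5 ± 10.5 CPM without it (SD, n = 4 each) and a pooled value of 1.41 (SE 0.069, adjusted p = 9.27e-09). TRAV8-4, an alpha variable segment, had 77.8 and 82.5 CPM with GSI, 62.0 and 72.4 CPM with the combination, 34.0 and 33.0 CPM with DMSO and 23.4 and 22.5 CPM with dTAG-13. It rose by nearly the same ratio (1.40, SE 0.075, adjusted p = 1.93e-08), and TRAC and TRAV8-4 can be parts of 1 transcript. PTGDR2, a prostaglandin D2 receptor, was a minor transcript with 7.79 and 8.83 CPM with GSI, 7.77 and 9.06 CPM with the combination, 2.54 and 3.04 CPM with DMSO and 3.59 and 3.12 CPM with dTAG-13. Its ratio was the highest under the rule for named genes (1.44, SE 0.12, adjusted p = 3.9e-06). Of the other genes highest by that rule, LGALS1, the lectin galectin-1 (1.13, SE 0.13, adjusted p = 7.11e-05), NT5E, the ectoenzyme CD73 (0.91, SE 0.10, adjusted p = 6.91e-05), and CDH24, a cadherin (0.89, SE 0.11, adjusted p = 8.01e-05), rose as well, as did ARHGAP39 (0.97). Of the CD3 components CD3D fell (-0.37, SE 0.092, adjusted p = 0.0234), a call lost without library GSI 1, DMSO 1 or dTAG-13 2 (adjusted p up to 0.0785), and of 9 genes of the receptor and its CD3 partners 1 rose, 2 fell and 6 did not pass.

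Proximal T cell receptor signalling had 8 of 28 genes higher, 0 lower and 20 not called, with a median of 0.15. PTPRC, the phosphatase CD45 that activates Src kinases, had 321 and 283 CPM with GSI, 264 and 259.8 CPM with the combination, 176 and 174 CPM with DMSO and 161 and 151 CPM with dTAG-13. It rose without overlap (0.77, SE 0.056, adjusted p = 5.9e-07). UBASH3B, a phosphatase that dampens the signal (0.51, SE 0.058, adjusted p = 6.15e-05), SLA, an adaptor that promotes receptor turnover (0.43, SE 0.064, adjusted p = 0.00055), and GRAP2, the adaptor GADS (0.38, SE 0.056, adjusted p = 0.00054), rose as well. RASGRP1, which activates Ras downstream of the receptor, had 229 and 219 CPM with GSI, 228 and 224 CPM with the combination, 116 and 120.4 CPM with DMSO and 125 and 119.9 CPM with dTAG-13. The libraries agreed closely within each group (0.90, SE 0.051, adjusted p = 3.44e-08). Among 9 genes of the SLAM receptors and their adaptor 4 rose, 1 fell and 4 did not pass (median 0.35), and 0 fell without GSI 1, combination 1, DMSO 2, dTAG-13 1 or dTAG-13 2. SH2D1A, the adaptor SAP, had 241 and 255 CPM with GSI, 236 and 233 CPM with the combination, 174 and 167 CPM with DMSO and 167 and 173 CPM with dTAG-13 (0.50, SE 0.051, adjusted p = 2.1e-05), and SLAMF6 rose by 0.51 (SE 0.073, adjusted p = 0.000447).

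Transcription factors of thymocytes had 11 of 23 higher, 3 lower and 9 not called (median 0.25). TOX, required for CD4 lineage development, had 244 and 241 CPM with GSI, 198 and 199 CPM with the combination, 158 and 147 CPM with DMSO and 134 and 117 CPM with dTAG-13. Every library with GSI was above every one without it (0.66, SE 0.056, adjusted p = 3.39e-06), and its relative TOX2 rose at a lower level (1.11, SE 0.13, adjusted p = 7.89e-05). RORB, a nuclear receptor, rose by 1.05 (SE 0.12, adjusted p = 7.66e-05). RUNX3, associated with the CD8 lineage, had 38.9 and 33.8 CPM with GSI, 40.2 and 34.1 CPM with the combination, 49.3 and 52.2 CPM with DMSO and 53.9 and 46.1 CPM with dTAG-13. It fell by 0.45 (SE 0.076, adjusted p = 0.00155), and ETS2 fell by 0.33 (SE 0.051, adjusted p = 0.000785). TCF7, induced by NOTCH in early thymocytes, had 906 and 918 CPM with GSI, 925 and 893 CPM with the combination, 1073 and 1057 CPM with DMSO and 1090.2 and 1056 CPM with dTAG-13. The fall was small (-0.23, SE 0.055, adjusted p = 0.0156), and its call was lost without library DMSO 1, DMSO 2, dTAG-13 1 or dTAG-13 2 (adjusted p up to 0.0672).

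Genes of the TAL1 circuit, a set of factors that bind and activate one another's genes in T-ALL, rose in part. TAL1 had 208 and 198 CPM with GSI, 197 and 199 CPM with the combination, 154 and 166 CPM with DMSO and 145 and 147 CPM with dTAG-13. The 4 libraries with GSI agreed closely and lay above the other 4 (0.39, SE 0.053, adjusted p = 0.000261). An antisense gene on the other strand, RP1-18D14.7, was also called higher (0.57, SE 0.10, adjusted p = 0.00269), and their reads cannot be told apart. RUNX1 had 433 and 377 CPM with GSI, 395 and 348 CPM with the combination, 274 and 292 CPM with DMSO and 249 and 238 CPM with dTAG-13. It rose by 0.56 (SE 0.064, adjusted p = 6.15e-05), and GATA3, at 112 ± 8.79 CPM with GSI and 84.5 ± 3.53 CPM without it (SD, n = 4 each), by 0.40 (SE 0.056, adjusted p = 0.000394). SSBP2, a cofactor of LDB1, rose by 0.51 (SE 0.054, adjusted p = 2.82e-05), while SSBP3 fell by 0.19 (SE 0.052, adjusted p = 0.0356), a call lost without library GSI 1, combination 1, combination 2, DMSO 1, DMSO 2, dTAG-13 1 or dTAG-13 2, with total counts alone or in the model of the 4 groups (adjusted p up to 0.148). MYB (0.03, SE 0.054) and LMO1 (0.09, SE 0.12) did not pass, which left 4 of 11 higher, 1 lower and 6 not called (median 0.09), and LMO2 had too few counts to test. Reported targets that TAL1 activates numbered 12, of which 6 were called higher, 1 lower and 5 neither, with ARID5B, a chromatin-binding factor, at 0.67 (SE 0.071, adjusted p = 2.98e-05). The 1 that fell, STAT5A (-0.31, SE 0.089, adjusted p = 0.0421), lost its call without library GSI 1, combination 1, combination 2, DMSO 1, DMSO 2, dTAG-13 1 or dTAG-13 2, with total counts alone, without the filter on low counts, with DESeq2 or in the model of the 4 groups (adjusted p up to 0.126). TAL1, GATA3, RUNX1 and MYB belong to both lists.

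**Figure D3:**
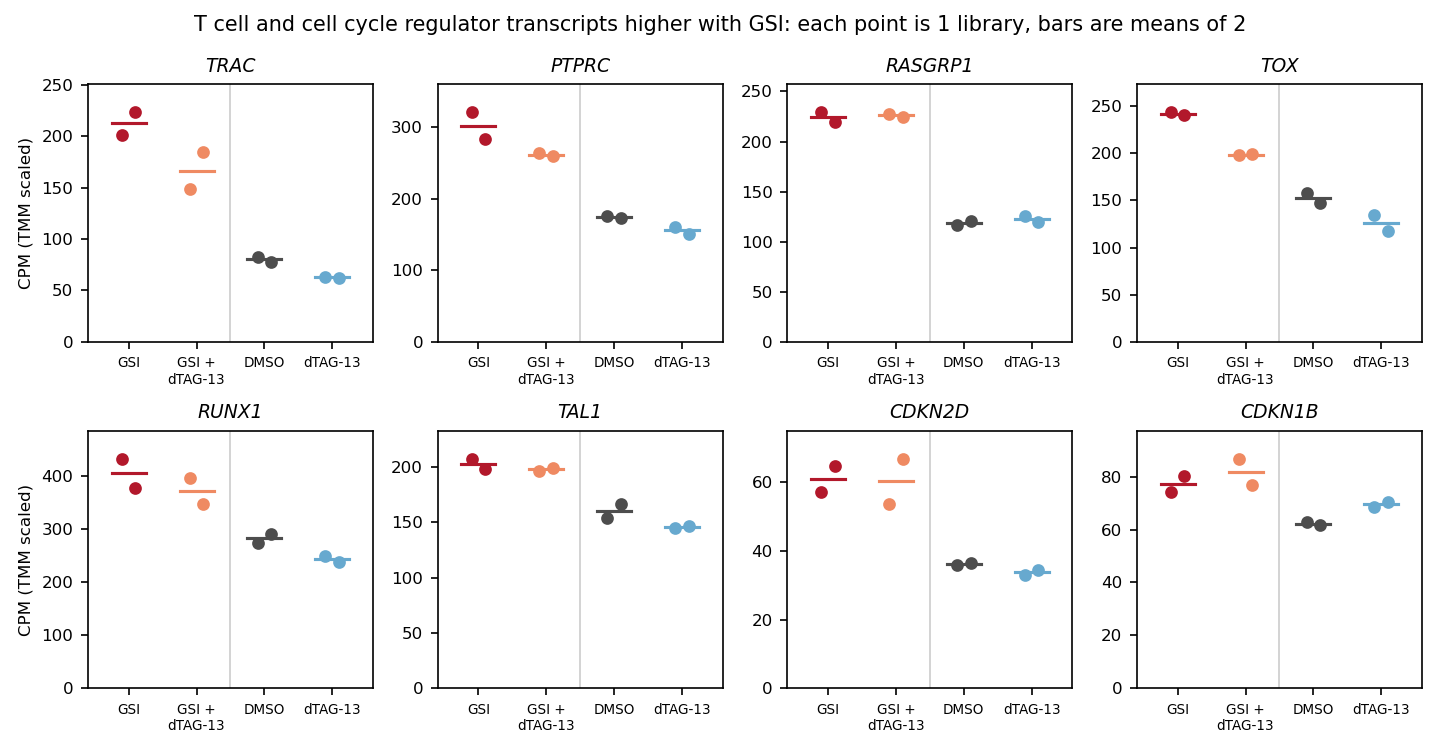
CPM of 8 transcripts called higher with GSI, in each library (vertical axis, linear and starting at 0), with GSI and the combination of GSI and dTAG-13 left of the grey line and DMSO and dTAG-13 right of it; points are libraries and bars are means of 2. In every panel the 4 libraries with GSI lie above the 4 without it, from TRAC (log2 fold change 1.41) to CDKN1B (0.27).

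Inhibitors of the cell cycle and genes of mitosis both rose in part. CDKN2D, the CDK4/6 inhibitor p19, had 57.1 and 64.8 CPM with GSI, 53.8 and 66.8 CPM with the combination, 35.9 and 36.5 CPM with DMSO and 33.1 and 34.5 CPM with dTAG-13. Libraries with GSI were higher by 0.79 (SE 0.074, adjusted p = 8.93e-06), and CDKN2C, the inhibitor p18, by 0.36 (SE 0.060, adjusted p = 0.00137). CDKN1B, the inhibitor p27, had 74.1 and 80.1 CPM with GSI, 86.8 and 76.9 CPM with the combination, 62.7 and 61.7 CPM with DMSO and 68.6 and 70.4 CPM with dTAG-13. Its rise was small (0.27, SE 0.059, adjusted p = 0.00923), and its call was lost without library DMSO 2 (adjusted p = 0.0526). Of 12 genes of this list 4 rose (CCND3 with these 3), 0 fell and 8 did not pass, with 2 rising without DMSO 2. In mitosis 15 of 35 genes rose, 0 fell and 20 did not pass (median 0.17), among them HMMR, a spindle protein (0.32, SE 0.052, adjusted p = 0.00124), and NDC80, of the kinetochore (0.29, SE 0.059, adjusted p = 0.00627). That count was 7 without GSI 1 or DMSO 2 and 5 without DMSO 1 or dTAG-13 2. In DNA replication 3 of 35 rose and 0 fell (median -0.02), 8.57% called beside 9.43% of all genes tested. The number rising was 1 without GSI 1 or any 1 library of DMSO and dTAG-13.

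Some smaller groups held increases, and some held falls. In cholesterol and fatty acid synthesis 7 of 29 genes rose and 0 fell (median 0.13), with 3 rising without DMSO 1, 4 without DMSO 2 or dTAG-13 2, and 11 without the filter on low counts. FADS2, a fatty acid desaturase, had 1263 and 1231 CPM with GSI, 1382 and 1287 CPM with the combination, 949.8 and 896 CPM with DMSO and 1009.8 and 963 CPM with dTAG-13. It rose by 0.44 (SE 0.058, adjusted p = 0.000253). Its neighbour FADS1 on the other strand overlaps it and was also called higher, so reads of both may be mixed. XBP1, a factor of the secretory stress response, rose by 0.42 (SE 0.055, adjusted p = 0.000197). BCL2, which protects cells from death, rose by 0.50 (SE 0.077, adjusted p = 0.000865), BCL2L11, its antagonist BIM, fell by 0.37 (SE 0.063, adjusted p = 0.00181), and 11 of 14 BCL2 family genes were not called. The number of that family called higher was 2, or 1 without DMSO 1, dTAG-13 1 or dTAG-13 2, and the number called lower was 1, or 2 without GSI 2. MIR4435-1HG overlaps BCL2L11 on the other strand and was also called lower, so their reads cannot be told apart. IRF1, an interferon response factor, fell (-0.47, SE 0.058, adjusted p = 0.000124), 1 of 4 lower and 0 higher among 26 interferon-stimulated genes. C5orf56 overlaps IRF1 on the other strand and was also called lower, with the same limit. Among 9 chemokine receptor genes 4 rose, 2 fell and 3 did not pass (median 0.25). The number that rose was 2 without dTAG-13 1 or dTAG-13 2, and the number that fell was 1 without DMSO 1 or DMSO 2. CCR7, a homing receptor, rose by 0.52 (SE 0.11, adjusted p = 0.00688).

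Whether the response to GSI differed between cells with and without dTAG-13 was asked in 2 ways. In the model with an interaction term, edgeR called 0 genes (0%) for a difference, 260 genes or 1.66% had an unadjusted p below 0.05, and DESeq2 called 0 with 81 below 0.05. This does not show that the responses were alike. Among the named genes, DTX1 had a log2 difference of 0.50 (SE 0.14, unadjusted p = 0.00393, adjusted p = 1) and SH3TC1 one of 0.47 (SE 0.12, unadjusted p = 0.00272, adjusted p = 1), with minus without dTAG-13. RAG1, of the recombinase that assembles receptor genes, had 24.0 and 18.8 CPM with GSI, 65.6 and 51.5 CPM with the combination, 25.4 and 26.6 CPM with DMSO and 50.1 and 47.8 CPM with dTAG-13. It lay a little lower with GSI alone than with DMSO and a little higher with the combination than with dTAG-13, for a pooled value of 0.01, SE 0.12.

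In 2 separate fits that share no library, edgeR called 246 of 15030 genes (1.64%) for GSI against DMSO and 96 of 15097 (0.636%) for the combination against dTAG-13. Of the 245 called in the first and tested in the second, 244 had the same sign there, and 92 were called there, which is 37.6% of the first list. These 92 were 95.8% of the 96 called in the second. Over all 14734 genes tested in both, 71.2% had the same sign. TNFRSF4 stood at -3.79 against DMSO and -3.51 against dTAG-13, HES4 at -2.53 against DMSO and -2.60 against dTAG-13, NOTCH3 at -1.97 against DMSO and -1.96 against dTAG-13, MYC at -0.94 against DMSO and -0.72 against dTAG-13 and TRAC at 1.40 against DMSO and 1.41 against dTAG-13.

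**Figure D4:**
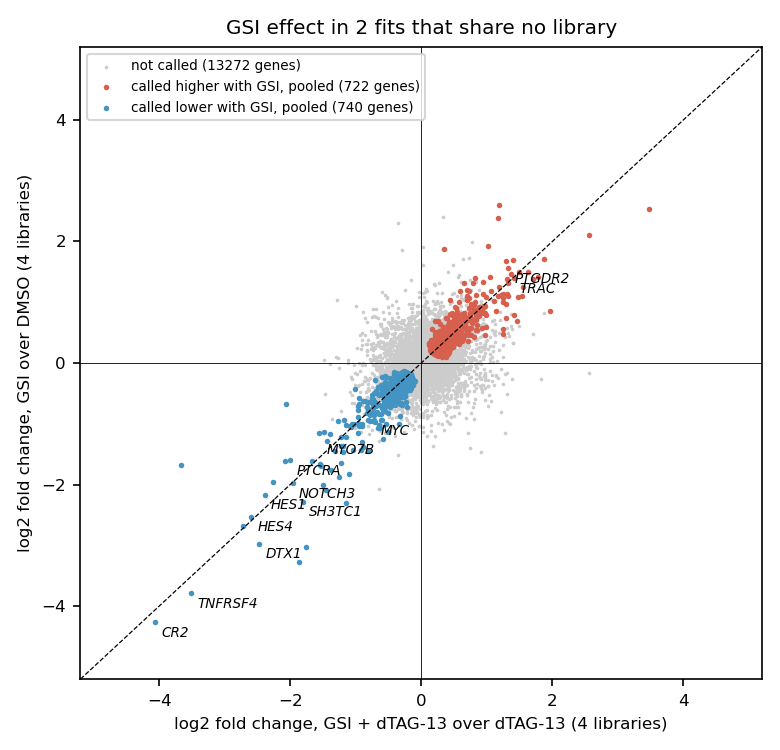
Log2 fold change of each gene for the combination over dTAG-13 (horizontal axis) and for GSI over DMSO (vertical axis), from 2 fits of 4 libraries each that share no library; red and blue points were called higher and lower in the pooled test, the dashed line marks equal values, and 1 gene lies outside the axes. Of the genes tested in both fits 722 were called higher and 740 lower, with CR2 and TNFRSF4 at the lower end and TRAC and PTGDR2 among the higher. Most called genes lie along the line. The pooled test used the same 8 libraries and favours genes with like values in both fits, so this is no separate evidence.

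Pooling brought 1227 genes past the threshold that neither separate fit had called, 609 higher and 618 lower. By the rule for named genes, HEMGN, a nuclear protein of haematopoietic cells (0.80, SE 0.13, adjusted p = 0.00131), NETO1, a receptor accessory protein (0.68, SE 0.14, adjusted p = 0.00723), and ZMAT1, a zinc finger protein (0.61, SE 0.12, adjusted p = 0.00608), were among the highest of these. RP11-713C5.1 overlaps NETO1 on the same strand and was also called higher, so reads of both may be mixed. GSC, a homeobox factor (-0.94, SE 0.16, adjusted p = 0.00193), TTYH2, a membrane protein (-0.67, SE 0.11, adjusted p = 0.00175), CX3CR1, the fractalkine receptor (-0.64, SE 0.14, adjusted p = 0.00974), and SH2B2, an adaptor protein (-0.60, SE 0.12, adjusted p = 0.00442), were among the lowest. All 7 genes given with values here lay low, with library values of 2.30 to 11.9 CPM.

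Some genes that moved with GSI also moved with dTAG-13, whose own pooled term called 119 genes (0.761%) over the same 8 libraries. The 2 terms share libraries, and their values are given side by side. PLCH1, a phospholipase C, had 27.3 and 25.9 CPM with GSI, 11.5 and 11.9 CPM with the combination, 11.3 and 11.1 CPM with DMSO and 5.21 and 5.13 CPM with dTAG-13. GSI raised it (1.22, SE 0.080, adjusted p = 1.73e-07) and dTAG-13 lowered it (-1.15, SE 0.080, adjusted p = 6.35e-06), and the combination lay near DMSO. PTCRA went the other way, with a dTAG-13 value of 1.06 (SE 0.16, adjusted p = 0.00398). ADCYAP1 (-0.84, SE 0.13, adjusted p = 0.004), GIMAP4 (-0.40, SE 0.059, adjusted p = 0.00348) and GIMAP5 (-0.37, SE 0.061, adjusted p = 0.00887) were lower with either agent. CD40LG, the ligand of CD40, was likewise lower with both, at log2 fold changes of -0.45 (SE 0.065, adjusted p = 0.000461) with GSI and -0.89 (SE 0.065, adjusted p = 7.31e-06) with dTAG-13. TRAC was lower with dTAG-13 (-0.36, SE 0.068, adjusted p = 0.0211), and TOX too (-0.28, SE 0.056, adjusted p = 0.027), both higher with GSI. SH3TC1 was higher with dTAG-13 (0.55, SE 0.085, adjusted p = 0.00602) and lower with GSI. CRBN, the substrate receptor of the ligase that dTAG-13 needs, stood at a log2 fold change with GSI of -0.01, SE 0.055. FKBP1A, the cell's own FKBP12 gene, stood at -0.07, SE 0.066, and neither was called. Reads of the FKBP12 tag may be counted at FKBP1A too, which was not tested.

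**Figure D5:**
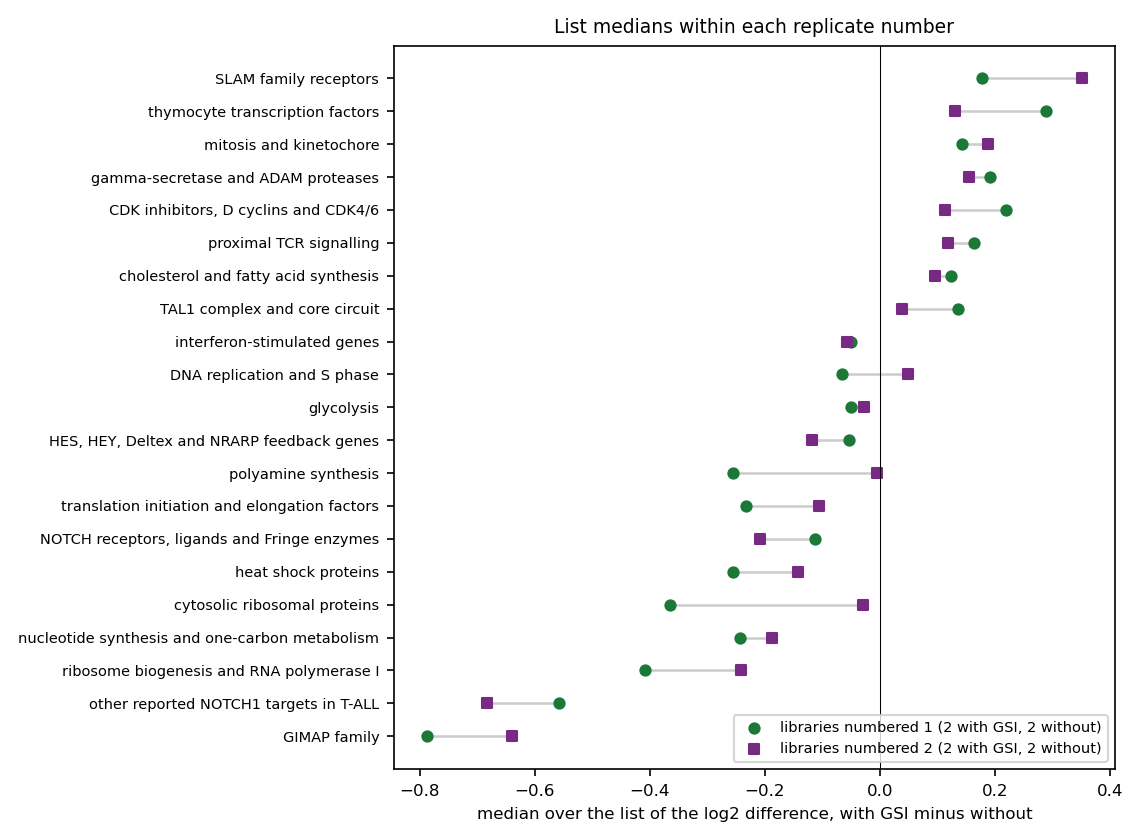
Median over each gene list of the log2 difference, with GSI minus without, between libraries numbered 1 (green circles) and between libraries numbered 2 (purple squares), each from 2 libraries with GSI and 2 without. Cytosolic ribosomal proteins (-0.365 and -0.030) differ most between the numbers among the 21 lists drawn, and GIMAP genes, NOTCH1 targets and ribosome assembly genes are negative in both.

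The libraries numbered 1 and 2 agreed on the direction of most lists in the plot of medians by replicate number. DNA replication genes stood at -0.07 between libraries numbered 1 and at 0.05 between those numbered 2. Replicates of GSI and of the combination differed from each other with a chi-square of 13.4 and 12.6 per degree of freedom, those of DMSO and dTAG-13 with 4.42 and 5.89, and all 4 pairs differed by more than sampling noise.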

How the data were processed

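RNA of 8 samples, 2 for each of 4 treatments, was made into strand-specific libraries and read from both ends, per the labels' protocols. The authors deposited whole-number counts per gene and library for 63677 genes. The submitters' processing notes name the hg19 genome, featureCounts, STAR 2.5.2a and DESeq2 1.12.4. Which annotation and which strand setting served the counting is not given in the sources used here. Near copies and overlapping genes can therefore share reads. The authors' tables of comparisons with DMSO were not used here.

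Genes were kept by filterByExpr over the 4 groups, which left 15646 genes with at least 99.89% of each library's counts. Counts were scaled by TMM and fitted with edgeR 4.0.16 in R 4.3.3 (robust quasi-likelihood, additive model of GSI and dTAG-13, 5 residual degrees of freedom, biological coefficient of variation 0.0746). Tests were 2-sided F-tests, with Benjamini-Hochberg adjustment across every tested gene and a threshold of 0.05. CPM use the same scaling, SD is over 4 libraries of 2 treatments, and SE is the log2 fold change divided by the square root of F. The interaction was tested in a model with the product of both factors, and each background in a fit of its 4 libraries. The edgeR steps were tested on simulated data. Promoters were the 250 bases before the start in RefSeq's table, matched by symbol or gene ID.

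The comparison, 46 gene lists with 784 of 844 genes tested, and the named genes were chosen with earlier results of these data known. Named genes are the 12 highest and 12 lowest calls at 5 CPM or more without overlap of the groups (clone names and pseudogenes left out), up to 4 calls of each list in each direction, the NOTCH lists, the 6 highest and lowest calls of the pooled test alone, and 20 fixed genes. Some genes were named outside it after their values were seen: MAX, GIMAP8, IGLL1, CD79A, RP11-286H15.1 and RP1-18D14.7. A few list members are not reported here by name.

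Alternatives were DESeq2's size factors, total counts alone, no filter on low counts, DESeq2 1.42.0 (Wald), a replicate block, a model of the 4 groups and leaving out each library.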

Additional observations from a re-analysis of the deposited data

Results flagged for a closer look

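In 242 sets of 4 libraries, with or without GSI, the highest or lowest library was compared with the spread of its set, for total counts, mitochondrial share and the 119 genes given with values. In 12 sets (4.96%) it stood apart by Dixon's 95% criterion. Chance alone meets it in about 1 in 20 sets drawn from 1 distribution. Each set here joins 2 treatments, so that rate may not hold. DMSO 1 was the shallowest library without GSI, at 17544319 counts. Among libraries with GSI, GSI 1 stood apart for CR2 (0.188 CPM) and HES6 (22.4 CPM), and GSI 2 for CISH (7.09 CPM), DTX2 (31.1 CPM) and SKP2 (148 CPM). The CR2 counts were 4 and 3 with GSI and 3 and 3 with the combination, so its flag rests on very few reads. In the combination, number 1 was apart for MYO7B (629 CPM) and number 2 for TTYH2 (3.55 CPM). Among libraries without GSI, DMSO 1 was apart for ACY3 (12.5 CPM), DMSO 2 for GSC (5.54 CPM), and dTAG-13 2 for ETS2 (148 CPM) and SKP2 (163 CPM).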

How the results depend on the processing

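Under the 14 alternatives 0 named genes reversed their direction. Of 171 called named genes 111 kept the call in all 14 and 60 lost it in at least 1. Pooled, 744 genes were called lower and 732 higher. The count called lower was 1131 without the filter on low counts and 1184 with the replicate block (higher 933 and 1043). Leaving out 1 library gave 356 to 1010 genes lower and 366 to 864 higher, and moved both counts by over 1.5 times without GSI 1, DMSO 1, DMSO 2 or dTAG-13 2. The cause was not tested. With DESeq2's size factors, total counts alone, DESeq2 and the model of the 4 groups, 770, 591, 817 and 557 genes were lower. The difference between backgrounds stayed at 0 genes, except that 0 to 1 was lower when 1 library was left out: AC079949.1 without DMSO 1 (log2 difference -2.53, adjusted p = 0.00225; -0.92 and adjusted p = 1 with all 8 libraries). It was chosen after its values were seen. Medians of 12 of 46 lists changed sign in at least 1 alternative.

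Same-numbered libraries deviated from their group means with correlations of 0.21 (GSI and combination), 0.15 (GSI and dTAG-13), 0.14 (combination and dTAG-13), -0.11 (GSI and DMSO), -0.04 (combination and DMSO) and -0.03 (dTAG-13 and DMSO), and since not every pair lay above 0.1 the libraries were taken to share only a number. The replicate block ended 0 calls of named genes, but raised the number called lower to 8 of 75 ribosomal protein genes (0 without it), 10 of 30 translation factors (3), 8 of 15 heat shock genes (5) and 3 of 23 glycolysis genes (1). The number called higher became 11 of 29 cholesterol and fatty acid genes (7), 2 of 23 glycolysis genes (1), 2 of 12 MYC network genes (1) and 2 of 3 recombinase genes (1). With 2 libraries a group and 17544319 to 22180009 counts each, differences in rare transcripts may not be detectable.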

Other observations

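Gene segments of the T cell receptor alpha locus moved together, a pattern chosen after its values were seen. Of 11 alpha segments tested 7 rose (TRAC, TRAJ3, TRAV16, TRAV17, TRAV18, TRAV19 and TRAV8-4), 0 fell and 4 did not pass. Of 19 beta segments 1 fell, TRBV7-3, and 18 did not pass. A variable, a joining and a constant segment can be parts of 1 transcript, so the 7 are not 7 separate changes. Variable segments also resemble one another, so reads can be shared between them.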
